A study of Mus musculus with 8 samples.

Results

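The promoters with the strongest acetylation of histone H3 at lysine 9 (H3K9ac) were those of 923 protein-coding genes. For each gene, the peak with the highest fold enrichment within 1 kb of any transcription start site (TSS) was taken in each of 6 peak lists and ranked from 0 to 100 among all genes with such a peak in that list. A gene was kept when its rank was at least 80 in all 6 lists. The 923 genes, called members here, made up 9.88% of the 9341 genes that had a promoter peak in every list and 4.21% of the 21938 protein-coding genes examined. Because the members were selected on fold enrichment, their height is a description and not a result, and no p-value is given. Among 29 gene lists, the highest shares of members were in heat shock and ubiquitin, splicing and cytosolic ribosomal protein genes. These lists cover 163 members, and 760 members are in none of them. None of the blood lineage markers was a member, but only 6 of them had a promoter peak in all 6 lists, so nothing is read from this. Of the haematopoietic transcription factor genes with a promoter peak in all 6 lists, 7 of 47 were members (14.9%).

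H3K9ac is deposited by acetyltransferases such as GCN5 and PCAF on the nucleosomes that flank an active TSS. It is read by the transcription machinery together with other acetyl marks and is removed by histone deacetylases. GFI1, a transcriptional repressor of blood cells, recruits such deacetylases to its target genes. Promoters of genes used by every cell usually lie in CpG islands and carry this mark in most tissues.

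The data are H3K9ac ChIP-seq peak lists of bone marrow (BM) cells, frozen before use. The methods of the study name BM cells, while the title of its ChIP-seq figure names c-kit+ cells, and no sorting is described. The cells came from C57BL/6 mice that all carry the *NUP98-HOXD13* transgene, a model of myelodysplastic syndrome. The mice were of the genotype *GFI1-36S*, *GFI1-36N* (in which serine 36 of GFI1 is replaced by asparagine) or *GFI1-KD* (reduced *GFI1* expression). For each genotype there was 1 library from mice given curcumin, a plant polyphenol, at 20 mg/kg weekly into the peritoneum, and 1 from mice given the vehicle. Since each group is 1 library, differences between groups could not be checked against replicates. Age, sex and the number of mice per library are not given in the sources used here. For *GFI1-36S*, treatment is reversed between the list names and the sample labels, and the labels were followed. For *GFI1-36N*, the list names describe a heterozygous genotype with vehicle and a homozygous one with curcumin. If the latter holds, zygosity and treatment cannot be told apart in *GFI1-36N*. The lists held between 20354 and 49213 peaks. The *Gfi1* promoter had a peak in all 6 lists, which says nothing of the variant a mouse carries.

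The library labelled *GFI1-36S* curcumin stood apart. It had the fewest peaks, and its list had no promoter peak at any of 12 neutrophil markers, at any of 7 monocyte and macrophage markers and at 9 of 11 erythroid markers, whereas 11 of 12 T-cell markers had one. The summed fold enrichment of the T-cell markers was 124 in this library and between 13.1 and 30.3 in the other 5, and only *Cd8a* was without a peak here. The summed fold enrichment of the neutrophil markers was 0 here and between 74.0 and 157 in the others. This list alone had peaks on the Y chromosome, 3 in all. In bulk samples, fewer cells of a type and less of the mark per cell cannot be told apart, and the part of cell composition in the values below was not tested. The main counts of members are therefore given with and without it. Sequence and motif results are given with it alone.

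Promoter sequences of 8 members are shown because they include the highest-ranked members with a RefSeq sequence and the highest-ranked ribosomal protein and chaperone or ubiquitin genes with one. Each runs from 200 bases before the TSS to 20 bases from the TSS onward, read 5′ to 3′ on the strand of the gene, from RefSeq build GRCm38.p6. *Rbm39*, a splicing factor related to U2AF, lies at chr2:156179561-156179780 on the minus strand. *Cdc27*, a subunit of the anaphase-promoting complex, lies at chr11:104550601-104550820 (minus), and *Rbbp6*, a ubiquitin ligase that binds RB, at chr7:122970364-122970583 (plus). *Ppp2ca*, the catalytic subunit of protein phosphatase 2A, lies at chr11:52098624-52098843 (plus), and *Hmgb2*, a chromatin protein with HMG boxes, at chr8:57511643-57511862 (plus). *Wbp11*, a spliceosome-associated protein, lies at chr6:136828197-136828416 (minus), *Rps6*, a protein of the small ribosomal subunit, at chr4:86857348-86857567 (minus) and *Ube2s*, a ubiquitin-conjugating enzyme, at chr7:4812321-4812540 (minus). Capitals mark matches, on either strand, of 8 core promoter or factor motifs whose letters are given further on, among them the CCAAT box, the GC box, the TATA box, the ETS motif and the cAMP response element.
Rbm39: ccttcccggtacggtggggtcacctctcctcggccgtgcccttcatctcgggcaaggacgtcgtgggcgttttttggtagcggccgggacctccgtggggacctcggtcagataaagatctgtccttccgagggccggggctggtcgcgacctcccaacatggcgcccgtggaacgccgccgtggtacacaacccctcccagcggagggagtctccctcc
Cdc27: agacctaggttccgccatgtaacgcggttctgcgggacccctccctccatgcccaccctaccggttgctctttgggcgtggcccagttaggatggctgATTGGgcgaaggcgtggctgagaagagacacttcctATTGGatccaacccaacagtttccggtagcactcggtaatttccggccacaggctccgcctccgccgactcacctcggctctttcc
Rbbp6: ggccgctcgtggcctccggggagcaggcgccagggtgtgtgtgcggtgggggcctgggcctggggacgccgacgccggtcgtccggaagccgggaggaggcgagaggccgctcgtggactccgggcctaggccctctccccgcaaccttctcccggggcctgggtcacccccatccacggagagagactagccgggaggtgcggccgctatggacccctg
Ppp2ca: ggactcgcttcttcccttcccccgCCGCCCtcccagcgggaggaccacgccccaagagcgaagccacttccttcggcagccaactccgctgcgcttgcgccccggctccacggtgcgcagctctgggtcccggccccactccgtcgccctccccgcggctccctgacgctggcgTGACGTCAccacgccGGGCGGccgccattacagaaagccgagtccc
Hmgb2: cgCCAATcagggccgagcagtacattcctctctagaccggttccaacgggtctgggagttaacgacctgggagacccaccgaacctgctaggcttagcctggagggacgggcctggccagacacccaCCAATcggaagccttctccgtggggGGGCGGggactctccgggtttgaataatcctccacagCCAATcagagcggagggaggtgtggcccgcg
Wbp11: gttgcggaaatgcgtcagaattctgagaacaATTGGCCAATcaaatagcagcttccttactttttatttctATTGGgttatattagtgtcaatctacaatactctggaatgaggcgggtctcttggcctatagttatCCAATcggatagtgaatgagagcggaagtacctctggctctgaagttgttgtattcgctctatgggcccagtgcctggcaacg
Rps6: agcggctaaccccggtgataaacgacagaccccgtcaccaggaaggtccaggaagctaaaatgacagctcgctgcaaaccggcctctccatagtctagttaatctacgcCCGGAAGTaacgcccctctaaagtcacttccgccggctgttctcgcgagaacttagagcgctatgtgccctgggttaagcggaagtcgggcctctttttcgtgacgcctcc
Ube2s: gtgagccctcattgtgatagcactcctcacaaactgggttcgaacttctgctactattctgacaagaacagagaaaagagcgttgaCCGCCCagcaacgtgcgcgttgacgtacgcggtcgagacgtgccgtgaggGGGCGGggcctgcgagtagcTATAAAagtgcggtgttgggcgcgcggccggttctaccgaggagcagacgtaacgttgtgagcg

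The windows differ widely among themselves. GC content ranged from 44.1% in *Wbp11* to 75% in *Rbbp6*, and CpG dinucleotides from 7 in *Wbp11* to 26 in *Ppp2ca*. *Hmgb2* held 3 CCAAT boxes and 1 GC box, *Wbp11* 4 CCAAT boxes and *Cdc27* 2 CCAAT boxes. *Ppp2ca* held 2 GC boxes and a cAMP response element. *Ube2s* was the only one of the 8 with a TATA box, and *Rps6* the only one with the ETS motif. *Rbm39* and *Rbbp6* held none of the 8 motifs in this window. No single motif was therefore shared by the 8 promoters shown.

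The rule placed the members at the top of each list. Fold enrichment, the ratio of fragments at the peak summit to the local background, had a median over members of 35.1 in *GFI1-36S* vehicle, 22.8 in *GFI1-36S* curcumin, 31.6 in *GFI1-36N* vehicle, 36.5 in *GFI1-36N* curcumin, 39.4 in *GFI1-KD* vehicle and 34.4 in *GFI1-KD* curcumin. Over the other 8418 genes with a promoter peak in all 6 lists, the medians were 21.2, 12.1, 18.2, 22.7, 23.4 and 19.9 in the same order. The *GFI1-36S* curcumin library was thus the lowest for members and non-members alike. The fragments behind a summit could be recovered from the deposited values, and the median member summit held between 128 fragments in *GFI1-36S* curcumin (exact Poisson 95% interval 107 to 152) and 292 in *GFI1-KD* vehicle (259 to 327). These intervals cover only the counting error of a single summit with that many fragments, and are not intervals of the median over members. No member summit held fewer than 101 fragments.

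**Figure D1:**
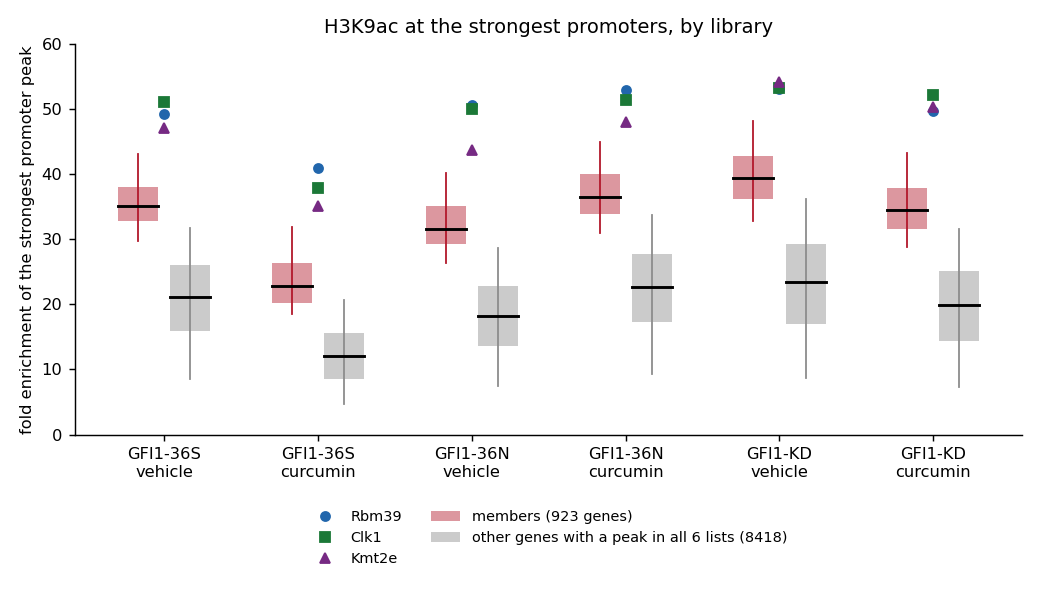
Fold enrichment of the strongest promoter peak (y axis) in each of the 6 libraries (x axis), for the 923 members in red and the other 8418 genes with a promoter peak in all 6 lists in grey. Boxes span the middle 50% of genes, thin lines the 5th to 95th percentile and black bars the median, and the symbols of *Rbm39*, *Clk1* and *Kmt2e* lie above the members' 95th percentile in every library.

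The highest members encode regulators of RNA processing, chromatin and protein turnover. *Rbm39* had the highest lowest rank of all genes, 99.9, with a fold enrichment of 49.2 and 41.0 in *GFI1-36S* vehicle and curcumin, 50.6 and 53.0 in *GFI1-36N*, then 53.0 and 49.7 in *GFI1-KD*. *Clk1*, a kinase that phosphorylates the serine- and arginine-rich splicing factors, had 51.1 and 37.9, 49.99 and 51.4, and 53.3 and 52.1 in the same order. The lowest rank of *Clk1* was 99.89, and both genes had their lowest fold enrichment in *GFI1-36S* curcumin. *Epc1*, a subunit of an acetyltransferase complex that contains KAT5, had a lowest rank of 99.8, as did *Kmt2e*, a member of the MLL family of chromatin regulators. The *Kmt2e* peak was also wide, 6480 bp on average over the 6 lists, against 2738 bp for *Rbm39* and 2104 bp for *Clk1*. *Cdc27*, *Rbbp6*, *Ppp2ca*, *Ino80d* (a subunit of the INO80 remodelling complex), *Hmgb2* and *Wbp11* followed, with lowest ranks from 99.8 to 99.5. The remaining 2 of the 12 highest members, *Myl4* and *BC049715*, start head to head with *Cdc27* and *Wbp11* and were credited with the peak of that neighbour, whose TSS lay nearer to the summit in all 6 lists.

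Of the 923 members, 391 had a rank of at least 90 in all 6 lists, 146 of at least 95 and 17 of at least 99. The span between the highest and the lowest rank of a member had a median of 7.98 and reached 18.7. Without the *GFI1-36S* curcumin library the median span was 5.83. At the threshold itself, *Aup1*, *Htra2*, *Catsper2* and *Pdia3* were just inside, each with a lowest rank of 80.01 in *GFI1-36N* vehicle at a fold enrichment of 24.9. *Baz2b*, *Chd2* and *Crlf3* were among those just outside, each with a rank of 79.98 and a fold enrichment of 17.98 in *GFI1-36S* curcumin, although *Baz2b* had a rank between 97.6 and 99.8 in the other 5 lists. A rank of 80 thus stood for a fold enrichment between 17.998 in *GFI1-36S* curcumin and 31.4 in *GFI1-KD* vehicle.

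Members are not independent of each other. In all 6 lists, 233 of them had the same strongest peak as another member, so that the 923 genes stood for 804 distinct sets of peaks. Of these sets, 114 were shared, by at most 3 genes, as with *Gart* and *Son*, *Hnrnpk* and *Rmi1* or *Rps27* and *Rab13*. The TSS nearest to the summit was the member's own in all 6 lists for 774 members (83.9%), and in none for 94 (10.2%). For other genes with a promoter peak in all 6 lists the same shares were 83.9% and 8.46%. A TSS of another protein-coding gene on the opposite strand lay within 1 kb upstream of 174 members (18.9%) and of 18.4% of the others. Head-to-head neighbours were thus about as frequent as elsewhere, while sharing of the strongest peak was not counted for the other genes.

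The gene groups were unevenly represented, and the share of 9.88% over all genes with a promoter peak in all 6 lists is the level to read them against. Factors of splicing and RNA binding made up the largest group, with 46 members of 95 genes that had a promoter peak in all 6 lists (48.4%). Genes of the heat shock response and ubiquitin had the highest share, 17 of 32 (53.1%). Cytosolic ribosomal protein genes followed with 25 of 76 (32.9%), factors of transcription elongation and Mediator with 22 of 97 (22.7%), translation factors with 13 of 63 (20.6%) and proteasome subunits with 6 of 35 (17.1%). These lists were drawn up with earlier results of these data known, so that the counts describe the members and are no independent evidence. Without the *GFI1-36S* curcumin library the counts were 48 for splicing, 19 for heat shock and ubiquitin, 25 for ribosomal proteins, 25 for elongation and Mediator, 13 for translation and 7 for the proteasome.

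**Figure D2:**
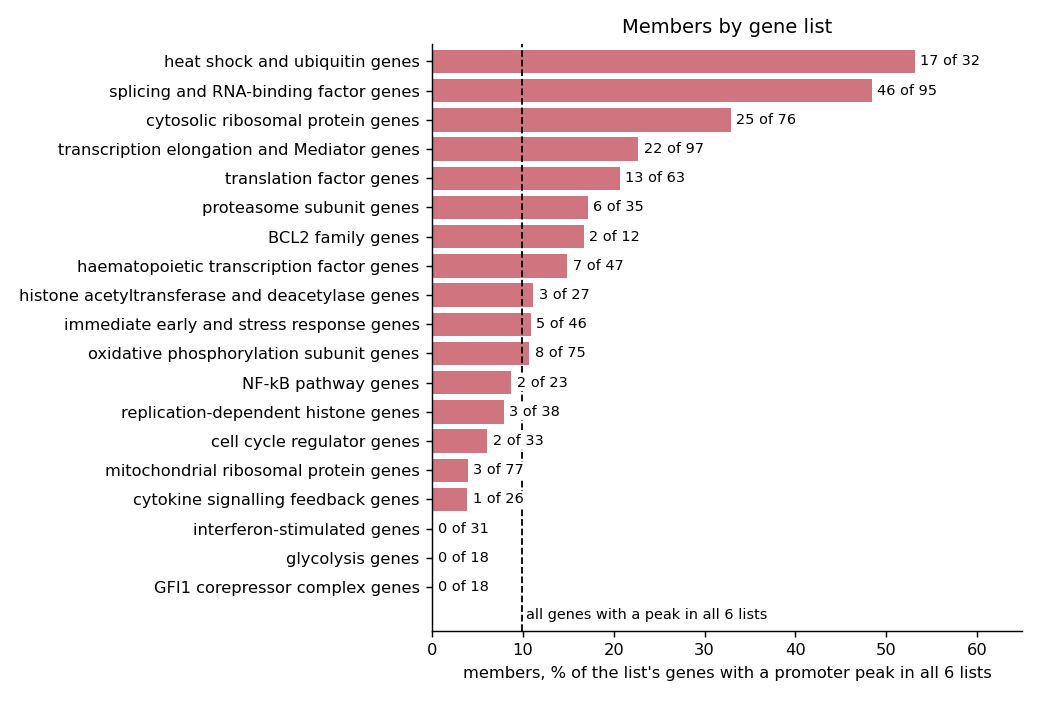
Members as a percentage of the genes of a list that had a promoter peak in all 6 lists (x axis), for the 19 gene lists with at least 10 such genes (y axis). The numbers beside the bars are the members and the genes of the list, and the dashed line marks the 9.88% over all genes with a promoter peak in all 6 lists, which the bars for splicing and for heat shock and ubiquitin pass most clearly.

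Among splicing factors, members included spliceosome subunits, regulators and kinases. *Sf3b1*, the subunit of the U2 particle that binds the branch point and is often mutated in myelodysplastic syndrome, had a fold enrichment of 44.5 and 31.3 in *GFI1-36S* vehicle and curcumin, 43.5 and 47.8 in *GFI1-36N*, then 49.5 and 44.7 in *GFI1-KD*. Its lowest rank was 99.3. Both subunits of U2AF, which recognises the 3′ splice site, were members (*U2af1* and *U2af2*), as was *Prpf8*, the core protein of the catalytic spliceosome. The serine- and arginine-rich factors were represented by *Srsf5*, *Srsf6*, *Srsf1*, *Srsf4*, *Srsf11* and *Srsf3*, and their kinases by *Clk1*, *Clk4* and *Clk3*. *Srsf5* ranked at least 99.2 and *Tra2a*, a splicing activator, at least 98.5 in every list. The hnRNP genes, whose products coat nascent transcripts, gave 14 members, among them *Hnrnpc*, *Hnrnpa2b1*, *Hnrnpf* and *Hnrnpk*. The closest gene of the list below the threshold was *Luc7l*, with a lowest rank of 79.2.

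Ribosomal protein genes differed by compartment. *Rps6* led the cytosolic genes with a fold enrichment of 38.5 and 31.5 in *GFI1-36S* vehicle and curcumin, 38.2 and 41.9 in *GFI1-36N*, then 42.9 and 38.6 in *GFI1-KD*, and ranked at least 97.7 in every list. *Rpl17*, *Rpl9*, *Rps27* and *Rps14* ranked at least 95.9. The median lowest rank was 70.3 over the 76 cytosolic genes with a peak in all 6 lists and 42.8 over 77 mitochondrial ribosomal protein genes, beside 40.6 over all 9341 genes. Of the mitochondrial genes 3 were members (3.9%), and for *Mrps18b* and *Mrpl18* the nearest TSS in all 6 lists was that of a head-to-head neighbour, *Ppp1r10* and *Tcp1*. Only *Mrpl54* had its own TSS nearest. Over all genes of a list with a peak in all 6 lists, the median peak width was 2228 bp for the 76 cytosolic ribosomal protein genes, 2816 bp for the 95 splicing factors and 1561 bp for the 77 mitochondrial genes. It was 2282 bp for the 25 member ribosomal protein genes and 3212 bp for the 46 member splicing factors.

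Chaperone and ubiquitin genes were led by *Hsp90aa1*, the inducible form of the chaperone HSP90, with a fold enrichment of 46.7 and 33.7 in *GFI1-36S* vehicle and curcumin, 36.1 and 46.9 in *GFI1-36N*, then 44.96 and 45.2 in *GFI1-KD*. The constitutive form *Hsp90ab1* ranked at least 96.9. Members also included *Hspa8* and *Hspa5*, the HSP70 chaperones of the cytosol and of the endoplasmic reticulum, 6 genes of their DNAJ partners, *Xbp1*, a factor of the unfolded protein response, and the ubiquitin gene *Ubb*. Among elongation factors, *Brd2*, a bromodomain protein that binds acetylated histones, ranked at least 93.6 and *Cdk12*, a kinase of the RNA polymerase II tail, ranked at least 96.5. Among translation factors, *Etf1*, the release factor that reads stop codons, ranked at least 98.0 and *Eif4a2*, a helicase of the cap complex, at least 97.8.

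Signalling and survival lists were short. Members numbered 2 of 12 BCL2 family genes (16.7%), *Bcl2l13* and *Mcl1*, 2 of 23 NF-kB pathway genes (8.7%) and 2 of 33 cell cycle regulators (6.1%), so that each share rests on 2 genes. *Mcl1*, an inhibitor of apoptosis on which myeloid cells depend, had a fold enrichment of 40.8 and 26.2 in *GFI1-36S* vehicle and curcumin, 38.4 and 41.5 in *GFI1-36N*, then 42.8 and 43.4 in *GFI1-KD*, with a peak 5460 bp wide on average. *Mdm2*, the ubiquitin ligase of p53, ranked at least 96.0, and *Birc2* and *Rela* of the NF-kB pathway at least 90.6 and 85.4. The acetyltransferase and deacetylase genes gave 3 members of 27 (11.1%), *Kat7*, *Kat5* and *Ep300*, which all encode acetyltransferases. Oxidative phosphorylation subunits, at 8 of 75 (10.7%), were near the share over all genes. No member was found among 31 interferon-stimulated, 18 glycolysis, 18 GFI1 corepressor and 6 heme biosynthesis genes with a promoter peak in all 6 lists. Beside a share of 9.88% over all genes, nothing is read from a count of 0 in groups this small. Without *GFI1-36S* curcumin, these counts were 1, 1, 1 and 0. They were then 2 for BCL2, 4 for NF-kB, 3 for the cell cycle, 5 for acetyltransferases and deacetylases and 10 for oxidative phosphorylation. The corepressor gene nearest to the threshold was *Rcor1*, with ranks from 85.0 to 94.7 in 5 lists and 78.4 in *GFI1-36S* curcumin.

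None of the 65 marker genes of the 7 marker lists was a member. Only 6 of them had a promoter peak in all 6 lists. Beside the share of 9.88% over all genes with such a peak, nothing is read from the absence of members among so few genes. The highest of the 6 was *Tfrc*, the transferrin receptor, with ranks from 43.4 to 78.4. *Hoxa9*, a homeobox gene active in leukemic progenitors, had a rank of 97.4 in *GFI1-36S* vehicle, 99.4 and 99.7 in *GFI1-36N* vehicle and curcumin and 99.2 in *GFI1-KD* curcumin. Its rank was 10.998 in *GFI1-KD* vehicle, and *GFI1-36S* curcumin had no promoter peak there. The peaks behind the high ranks of *Hoxa9* were 17253 to 20528 bp wide and reached past the gene, so their summits need not lie at its promoter. The *GFI1-KD* vehicle peak was 1006 bp wide. *Gfi1* itself ranked between 20.96 and 68.8, with a fold enrichment of 10.9 and 15.7 in *GFI1-36S* vehicle and curcumin, 9.6 and 16.8 in *GFI1-36N*, then 13.3 and 13.6 in *GFI1-KD*. *Kit*, *Gfi1b* and *Hmox1* did not rank above 37.8 in any list, and *Mycn* not above 4.9.

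The *GFI1-36S* curcumin library decided part of the membership. When each library was left out in turn, the genes with a rank of at least 80 in the other 5 numbered 1275 without *GFI1-36S* curcumin and between 957 and 980 without any other. This library thus kept out 352 genes, 10 of which had no promoter peak in it, while the others kept out between 34 and 57 each. It also held the lowest rank of 323 members (35.0%). The 1275 genes were 11.997% of the 10628 genes that had a promoter peak in the other 5 lists. For haematopoietic transcription factors the count of members was 7 of 47 (14.9%) with it (*Fli1*, *Klf6*, *Elf1*, *Klf13*, *Foxo3*, *Stat3* and *Stat5b*) and 15 of 63 (23.8%) without it. For immediate early and stress response genes it was 5 of 46 (10.9%) with it (*Jund*, *Klf6*, *Klf13*, *Zfp36l2* and *Nr4a2*) and 14 of 49 (28.6%) without it.

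The genes of these lists that it kept out were looked up after their values were seen. *Spi1*, which encodes the myeloid master regulator PU.1, had a rank between 89.6 and 99.04 in the other 5 lists and no promoter peak in *GFI1-36S* curcumin. *Cebpd*, a C/EBP factor of granulocytes and macrophages, and *Lmo2*, a bridging protein of stem and erythroid cells, ranked at least 86.4 and 91.5 elsewhere and had no promoter peak there either. The same held for *Zeb2*, a zinc-finger factor of myeloid and stem cells, with ranks of at least 96.0. *Cebpb* had a rank of 51.8 in this library and between 86.5 and 89.1 in the others, and *Klf3* 14.2 against at least 88.6. Among the early response genes, *Dusp1*, a phosphatase that switches off MAP kinases, ranked 69.7 against at least 96.4, and *Fosl2*, an AP-1 subunit, 24.3 against at least 83.2. Neutrophil, monocyte and erythroid marker peaks were also missing from this library, as given above, and the part of this in the ranks was not tested.

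**Figure D3:**
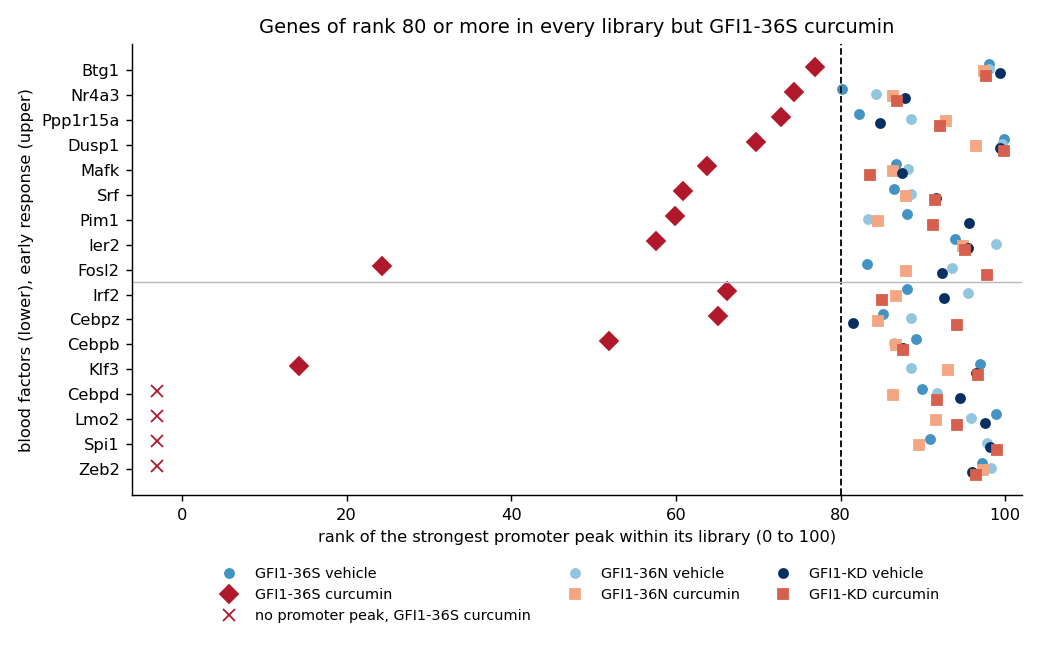
Rank of the strongest promoter peak within its library (x axis, 0 to 100) for the 9 immediate early and stress response genes (upper) and 8 haematopoietic transcription factor genes (lower) with a rank of at least 80 in every library but *GFI1-36S* curcumin (y axis). Each symbol is 1 library, the dashed line is the threshold of 80 and crosses mark the 4 genes with no promoter peak in *GFI1-36S* curcumin, *Cebpd*, *Lmo2*, *Spi1* and *Zeb2*.

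Single genes fell short in the other libraries too. *Bclaf1*, a splicing and death regulator, ranked at least 95.3 in 5 lists and 53.5 in *GFI1-KD* curcumin, where its fold enrichment was 20.2 against 40.04 with vehicle. The local background there was 1.99 times that of the genome with curcumin and 1.0 times with vehicle, and by fragments, 220 of them with curcumin, its lowest rank was 94.5. *Rps3a1* ranked 53.4 in the same library and at least 92.8 elsewhere, with a background of 1.77 times and a lowest rank by fragments of 90.7. *Syf2*, a spliceosome protein, ranked 53.7 in *GFI1-36N* curcumin and at least 80.6 elsewhere. *Ppp6r1* had no promoter peak in *GFI1-36N* vehicle and ranked at least 86.2 elsewhere, *Zzz3* ranked 59.9 in *GFI1-KD* vehicle and *Golga1* 55.7 in *GFI1-36S* vehicle, where its background was 1.62 times. The background of *Syf2* and *Zzz3* was 1.0 times in all 6 libraries.

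Curcumin and vehicle were compared at the members as the ratio of fold enrichment, divided by the median ratio over all genes with a promoter peak in both libraries. That median ratio, curcumin over vehicle, was 0.593 in *GFI1-36S* (a log2 shift of -0.75), 1.21 in *GFI1-36N* (0.28) and 0.865 in *GFI1-KD* (-0.21). After scaling, the members had a median log2 fold of 0.14 in *GFI1-36S*, -0.07 in *GFI1-36N* and 0.03 in *GFI1-KD*, and each of these signs turned without the scaling, at -0.61, 0.21 and -0.18. Over the other genes with a promoter peak in all 6 lists the scaled medians were -0.03, 0.03 and -0.01. The scaled fold was above 0 for 670 members in *GFI1-36S*, for 270 in *GFI1-36N* and for 549 in *GFI1-KD*. The rule bounds these folds, since a member had to be high in both libraries.

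The members past a change of 1.5-fold are given as counts, and since the rule used both libraries of each pair, nothing is read from their share. In *GFI1-36S*, 38 members (4.12%) were more than 1.5-fold higher with curcumin and 0 were lower, where 9.56% and 9.93% of all 9495 genes compared passed in these directions. In *GFI1-36N*, 0 members were past 1.5-fold in either direction, against 3.73% of 11112 genes higher and 3.60% lower. In *GFI1-KD* there were also 0 members in either direction, against 3.66% of 10965 genes higher and 4.32% lower. If the list names were right about *GFI1-36S*, the 38 members would be lower and 0 higher.

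**Figure D4:**
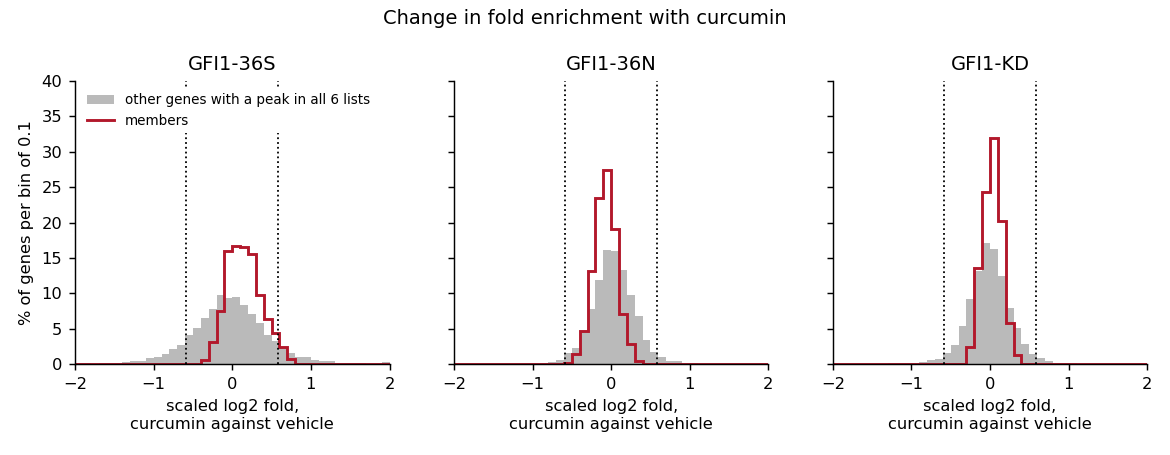
Percentage of genes (y axis) per bin of 0.1 of the scaled log2 fold in fold enrichment, curcumin against vehicle (x axis), in *GFI1-36S*, *GFI1-36N* and *GFI1-KD*, for members (red line) and other genes with a promoter peak in all 6 lists (grey). Dotted lines mark 1.5-fold, and members past them are seen in *GFI1-36S* alone, 38 on the higher side.

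The members at the ends of these distributions are named by size alone. In *GFI1-36S*, *Rad21*, a subunit of cohesin, was 1.88-fold higher with curcumin after scaling, with 249 fragments at the summit with vehicle (exact Poisson 95% interval 219 to 282) and 262 with curcumin (231 to 296). Its fold enrichment was 31.5 and 35.1, so that the scaled difference came with little change in the deposited value. *Zfp219* and *Scyl3* were 1.73-fold and 1.68-fold higher. The local background in vehicle and curcumin was 1.41 and 1.41 times the genome background for *Rad21*, 1.05 and 1.04 for *Zfp219* and 1.1 and 1.1 for *Scyl3*. *Rad21* lies on chromosome 15, where the 7 members all had a scaled log2 fold between 0.56 and 0.91 in *GFI1-36S*. The median rank of promoters on that chromosome was 34.8 with vehicle and 65.9 with curcumin, and the cause was not tested. *Sik3*, a kinase of the AMPK family, and *Stat3*, a mediator of cytokine signals, were lowest at 0.75-fold and 0.77-fold. With the treatments exchanged, *Rad21*, *Zfp219* and *Scyl3* would be at 0.53-fold, 0.58-fold and 0.59-fold with curcumin and *Sik3* and *Stat3* at 1.33-fold and 1.29-fold. In *GFI1-36N*, *Psmb2*, a proteasome subunit, was lowest at 0.67-fold with 270 fragments with vehicle (239 to 304) and 182 with curcumin (157 to 210), followed by *Jund*, an AP-1 subunit, at 0.70-fold and *B2m*, the light chain of MHC class I, at 0.71-fold. The highest there was *Slc35d1* at 1.27-fold. In *GFI1-KD*, *Tmpo*, a protein of the nuclear lamina, was highest at 1.39-fold and *Napa*, a factor of vesicle fusion, lowest at 0.74-fold. For both the local background also differed between the libraries, at 1.36 times the genome background with vehicle and 1.0 times with curcumin for *Tmpo* and at 1.0 and 1.55 times for *Napa*.

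Members were unevenly spread over the chromosomes. Among genes that had a promoter peak in all 6 lists, they made up 1.90% on chromosome 15 (7 of 368) and 0.803% on the X chromosome (2 of 249), against 5.52% to 18.1% on the other 18 chromosomes. The 5.52% was that of chromosome 16, with 16 members. Without the *GFI1-36S* curcumin library, 10 genes passed on chromosome 15, 5 on the X chromosome and 32 on chromosome 16. The 7 members on chromosome 15 were *Sub1*, *Ywhaz*, *Rad21*, *Ddx17*, *Ep300*, *Slc38a2* and *Kmt2d*. *Ep300*, the acetyltransferase p300, had a fold enrichment of 42.2 and 51.1 in the *GFI1-36N* libraries, 33.1 and 28.9 in *GFI1-36S* and 34.4 and 29.3 in *GFI1-KD*. The *GFI1-36N* values were the highest of the 6 for *Ep300*, *Sub1*, *Ywhaz*, *Rad21*, *Ddx17* and *Kmt2d*. For *Slc38a2* this held for *GFI1-36N* curcumin alone.

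The local background recovered at the summits also differed on chromosome 15. At promoters of chromosome 15 its median was 1.496, 1.51, 1.496 and 1.49 times the genome background in *GFI1-36S* vehicle and curcumin and *GFI1-KD* vehicle and curcumin, and 1.0 times in both *GFI1-36N* libraries. The median rank of chromosome 15 promoters by fold enrichment was 34.8, 36.3 and 31.4 in *GFI1-36S* vehicle and *GFI1-KD* vehicle and curcumin, and 56.3 and 63.8 in *GFI1-36N* vehicle and curcumin. *GFI1-36S* curcumin went against this, with the highest background and a median rank of 65.9. On chromosome 14 the background was 1.12 to 1.15 times in those 4 libraries and 1.0 in both *GFI1-36N* libraries. When genes were ranked by the fragments at the summit, an alternative chosen after seeing the data, 990 genes passed the rule, 819 of them members by fold enrichment. On chromosome 15 the share was then 16.03%, with genes such as *Golph3*, *Ccnt1* and *Puf60*, and on chromosome 14 it was 16.4% in place of 12.04%. On the X chromosome it stayed at 0.803%, with *Stag2*, a subunit of cohesin, and *Zfx* as the 2 members by fold enrichment. The background at X-linked promoters was 1.0 times that of the genome in all 6 libraries, and the median rank of X-linked promoters was between 20.4 and 37.9. The control behind each list is not given in the sources used here. The cause of the background on chromosome 15 was not tested.

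**Figure D5:**
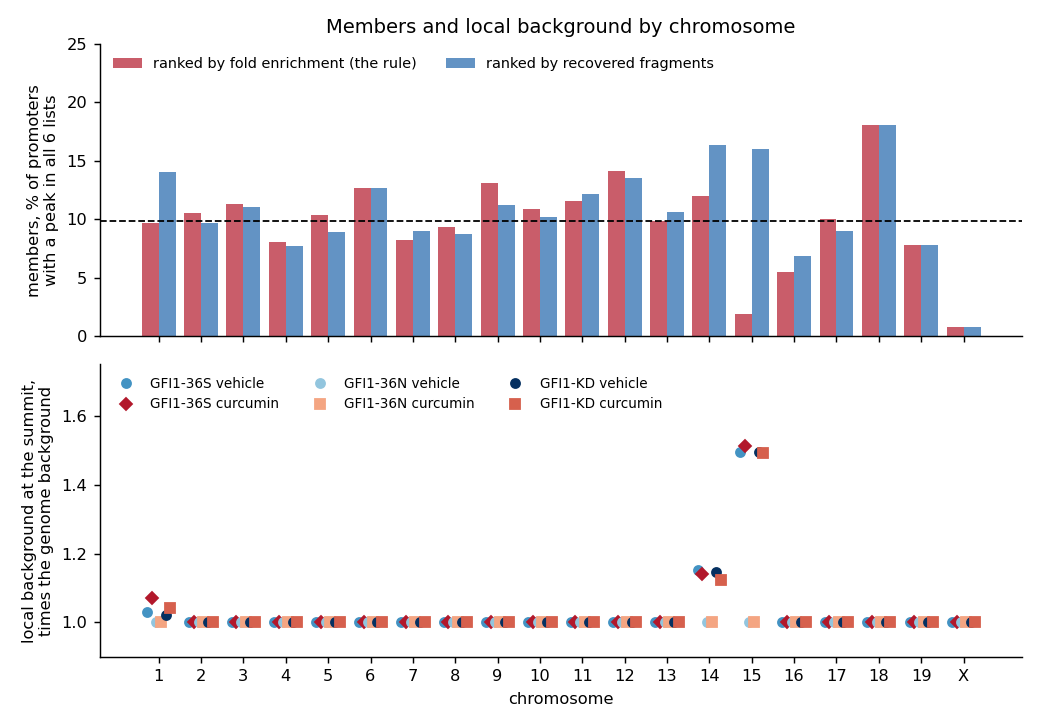
Upper panel, members as a percentage of genes that had a promoter peak in all 6 lists (y axis) on each chromosome (x axis), ranked by fold enrichment (red) or by fragments at the summit (blue), with a dashed line at 9.88%. Lower panel, median local background at promoter summits in multiples of the genome background for each library, which is near 1.5 on chromosome 15 in the *GFI1-36S* and *GFI1-KD* libraries and 1.0 in both *GFI1-36N* libraries, while the red bar is at 1.90% and the blue bar at 16.03%.

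The shape of the peaks was not used by the rule but comes from the same peak calls. The strongest peak of a member, averaged over the 6 lists, had a median width of 2535 bp (middle 50% 2058 to 3227 bp), against 1732 bp (1295 to 2304 bp) for the others. Within each library the median width of members was between 1641 bp in *GFI1-36S* curcumin and 3054 bp in *GFI1-KD* vehicle. Peaks of at least 4000 bp were found at 100 of the 923 members and at 197 of the 8418 others, a larger share among members. The widest were at *Irf2bp2*, a corepressor of IRF2 (11724 bp on average), *Setd1b*, a methyltransferase of histone H3 lysine 4 (9292 bp), *Zc3h4* (7597 bp), *Arid1a*, a subunit of the SWI/SNF complex (7288 bp), and *Ppp1r15b* (7024 bp). The *Irf2bp2* peak was 5331 bp wide in *GFI1-36S* curcumin and between 10453 and 13852 bp in the others. The narrowest was at *Pex7*, a receptor of peroxisomal import, with 837 bp, at a lowest rank of 87.8. Height and width thus did not always go together. The summit lay a median of 199.5 bp downstream of the nearest TSS of the member, and 183.5 bp for the others, and it was downstream in 79.0% and 78.9% of them.

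The sequence of the promoter was independent of the rule. A RefSeq sequence of 300 bases, from 250 before to 50 after the TSS, was matched to 745 members (80.7%), to 6830 of the others (81.1%) to 16879 of all genes (76.9%) and to 6904 genes with no promoter peak in any list (73.6%). Fewer than 80% of the last 2 groups had a sequence, so that a comparison with them is void and their values are given for orientation only. The median GC content was 65% for members, 62% for the others, 57% for all genes and 49% for genes with no promoter peak in any list. The ratio of observed to expected CpG dinucleotides was 0.909 for members (middle 50% 0.791 to 1.02), 0.805 for the others and 0.232 for genes with no promoter peak. It was above 0.6, a usual limit of CpG islands, at 93.6% of members and 82.2% of the others. Members were thus CpG-rich like most acetylated promoters, with a somewhat higher CpG ratio.

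Exact matches of 11 motifs were counted on both strands, and matches of different motifs may overlap. The GC box GGGCGG, bound by SP1 family factors, was found at 70.2% of members, 70.1% of the others and 48.6% of all promoters. The ETS motif CCGGAAGT was found at 10.7%, 10.6% and 5.55%, and the E-box CACGTG at 12.2%, 10.996% and 8.16%. The cAMP response element TGACGTCA was found at 5.23% of members, 3.602% of the others and 2.42% of all promoters, the YY1 motif GATGGCGG at 5.91%, 4.48% and 2.52%, and the NRF1 half-site GCATGCGC at 7.65%, 6.25% and 3.74%. The CCAAT box was found at 33.0%, 39.5% and 38.6%, and the RUNX motif TGTGGT at 9.53%, 11.8% and 14.8%. The TATA box TATAAA was found at 6.85% of members, 5.31% of the others and 12.9% of all promoters. The GFI1 motif AATCACNGC was found at 1.21%, 1.05% and 1.08%, and the CArG box of SRF at 1.34%, 1.02% and 1.51%. Of the 11 motifs, the CCAAT box had the largest gap in percentage points between members and the other acetylated promoters.

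The same motifs were counted in 3 gene groups, with no test of a difference. Of 41 member splicing factors with a sequence, 46.3% held a CCAAT box, 68.3% a GC box, 9.76% the ETS motif and 12.2% a TATA box. Of 19 member ribosomal protein genes with a sequence, the shares were 26.3%, 57.9%, 31.6% and 5.26% in the same order, the ETS motif being that of *Rps6* above and of 5 other genes. Of 68 mitochondrial ribosomal protein genes with a peak in all 6 lists and a sequence, they were 39.7%, 48.5%, 14.7% and 5.88%.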

How the data were processed

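H3K9ac was measured by ChIP-seq in 6 libraries of bone marrow cells, 1 per genotype and treatment, and 2 further libraries (input and IgG) came without a peak list. Per the labels and the methods of the study, the authors trimmed reads with Trim Galore, mapped them to mm10 with BWA-MEM, called peaks per library with MACS2 and removed regions of the ENCODE black list. The control used for each list, the peak threshold and the handling of duplicates are not given in the sources used here. The deposited lists hold a fold enrichment (ratio) of the summit over the local background. The authors' lists also give the −log10 p and −log10 q values and an integer score derived from −log10 q. Fold enrichment was not normalized between libraries by the authors, so ranks within a list were used.

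The highest fold enrichment of peaks overlapping 1 kb on each side of any TSS (GENCODE M21 basic protein-coding transcripts, without the mitochondrial chromosome, overlap of at least 1 bp) was ranked among genes with such a peak. Fragments at the summit and the local background were recovered as the whole numbers that return the deposited −log10 p within 0.002. Ranks given as a lower bound are rounded. Folds were scaled to the median over all genes compared, and a change past 1.5-fold was counted. With 1 library per group no test was run. Promoter sequences came from RefSeq (GRCm38.p6) and were matched by current or older symbol. The calculations were checked on simulated data. Some genes are not reported here. Python 3.11.15, numpy 2.4.6, scipy 1.17.1, pandas 2.3.3 and matplotlib 3.10.9 were used.

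Members and gene lists were chosen with earlier results of these data known. Genes were named by the highest lowest rank, the highest members of each list, the largest scaled folds, the widest and narrowest peaks, those nearest to the threshold, those missing from 1 library and the genes named by the study. Further members of a list, *Luc7l*, *Rcor1*, the examples of shared peaks and the chromosome 15 and X genes were named after their values were seen. The alternatives were ranking by −log10 p, other windows, thresholds and gene sets, no scaling, exchanged *GFI1-36S* treatments and leaving out each library.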

Additional observations from a re-analysis of the deposited data

Results flagged for a closer look

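The members' median scaled log2 fold, curcumin against vehicle, had opposite signs among the genotypes, at 0.14 in *GFI1-36S* and 0.028 in *GFI1-KD* but -0.071 in *GFI1-36N*. It drew attention because of this difference in sign, and the difference was not tested, since each value rests on 1 library per treatment. The members were also chosen on their ranks in these same libraries, which bounds the folds, so nothing is read from the signs. All 3 signs turn without the scaling. With the *GFI1-36S* treatments exchanged, as its list names have them, its median was -0.14, and *GFI1-36S* and *GFI1-36N* then had the same sign.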

How the results depend on the processing

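No paired analysis was possible because each group held 1 library and no result comes from a test. Of 175 alternative values computed, those of the main results left the value within its range in 130 cases, moved it in 23 and reversed it in 4. Within range means inside the 95% interval of a main median or share over genes, or within 1.5 times a main count. The 1275 members without *GFI1-36S* curcumin and the 1328 at a threshold of 75 were thus scored as within range. So was each count of 0 that stayed at 0, and the number within range is no measure of stability by itself. The intervals take genes as independent, though members share peaks, and they cover no spread between mice or libraries. For gene lists and chromosomes, 13 stayed within range and 5 moved. Without scaling the members' median log2 fold was -0.61 in *GFI1-36S*, 0.21 in *GFI1-36N* and -0.18 in *GFI1-KD*, with 0 members higher and 507 lower past 1.5-fold in *GFI1-36S*, 4 higher in *GFI1-36N* and 1 lower in *GFI1-KD*. With the *GFI1-36S* treatments exchanged the median was -0.14, with 0 members higher and 38 lower. Ranking by −log10 p gave a *GFI1-36S* median of 0.16 with 60 members higher, and 1 member lower in each of *GFI1-36N* and *GFI1-KD*. Ranking by recovered fragments, added after seeing the data, gave 0.19 and 75 members higher in *GFI1-36S*. A rank threshold of 90 gave 391 members, a width of 2642 bp, medians of 0.19, -0.099 and 0.046, and 17 members higher in *GFI1-36S*. A threshold of 75 gave a width of 2460 bp and 1 member lower in *GFI1-36S*, and requiring the summit inside the window also gave 1 lower there. Leaving out 1 library gave 957 to 1275 members, the highest without *GFI1-36S* curcumin, a width of 2433 to 2693 bp and a summit 194 to 203 bp downstream. Among the gene lists, mitochondrial ribosomal protein members numbered 5 without *GFI1-36S* curcumin and 6 by fragments. The causes were not tested. Counts of all GENCODE transcripts, and of lists and chromosomes without *GFI1-36S* curcumin, were also added after seeing the data. Depth limits single members, since the interval around a summit of 128 fragments is 107 to 152.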
